A study of Homo sapiens with 4 samples.

Results

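Macroautophagy is the route by which a cell wraps cytoplasm, aggregates or damaged organelles in a double membrane and delivers them to the lysosome. The genes described here encode its core machinery and its cargo receptors. They are 40 genes chosen by symbol for their known role, at a time when earlier results of these data were known. All 40 were found among the 20263 human Ensembl identifiers of the count table. All 40 also passed the filter on low counts, which kept 13744 genes.

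Expression was measured by RNA sequencing in MDA-MB-231 cells, a long-established line from a human breast tumour without estrogen, progesterone or HER2 receptor overexpression. They were kept for 24 h with RB-BC (2 libraries, RB-BC 1 and RB-BC 2) or with the vehicle DMSO (2 libraries, DMSO 1 and DMSO 2). RB-BC is described in the series title as a derivative of ribociclib, an inhibitor of the cell cycle kinases CDK4 and CDK6. The treatment protocol calls the compound Rib_CA without saying whether it is RB-BC, and no dose is stated in the sources read here. Both groups are the same unmodified line in serum-containing medium, and nothing in the labels says that the 2 libraries of a group came from separate cultures, so the p-values measure a spread that may be technical.

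Library totals were 42786422 and 42752387 counts for RB-BC 1 and RB-BC 2, against 34774542 and 37754168 counts for DMSO 1 and DMSO 2. The share of counts from the mitochondrial genome was 21.7% for DMSO 2 (21.68% to 21.71% as a 95% Wilson interval, counting error only), against 8.68% to 10.3% in the other 3 libraries, so DMSO 2 stands apart. Markers fitted the label of the line: vimentin (VIM) was at 3303 CPM or more in every library, the estrogen receptor gene ESR1 at 0.611 CPM or less and E-cadherin (CDH1) at 0.0531 CPM or less. ERBB2 was at 56.3 to 71.6 CPM. Of genes that mark other cells, CD3E and DCN had no counts, and PTPRC, PDGFRB, PECAM1 and CDH5 were at 2.66 CPM or less. COL1A1 was at 2.97 to 7.91 CPM. CD68, also a general lysosomal membrane gene, was at 471 and 503 CPM in RB-BC, against 148 and 332 CPM in DMSO. Values in CPM were computed here from the deposited counts, with library sizes scaled by TMM factors.

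Autophagy proceeds in steps, each with its own protein complex. The ULK1 kinase complex starts the process, a class III phosphatidylinositol 3-kinase complex marks the membrane with PI3P, and WIPI, ATG2 and ATG9 proteins feed lipid into the growing sheet, the phagophore. Enzymes related to the ubiquitin system then attach LC3 and GABARAP proteins to the membrane, receptors such as p62 tether cargo to them, and SNARE and tethering proteins fuse the closed vesicle with a lysosome. Transcript levels say how much mRNA each step has, not how much cargo is delivered, because several of these proteins, p62 and LC3 among them, are themselves consumed by the process.

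In cells given RB-BC, 6 of the 40 genes rose and 0 fell in edgeR's quasi-likelihood test at an adjusted p under 0.05. The 6 were the PI3P-binding protein gene WIPI1, the LC3-family gene GABARAP, the receptor genes OPTN and CALCOCO2, the initiating kinase gene ULK1 and the lipid transfer protein gene ATG2A. They had log2 fold changes from 0.59 (ATG2A) to 1.26 (WIPI1). Among all genes tested, 8.58% were called higher and 7.53% lower, beside 15% and 0% of the autophagy genes. The difference from these background shares was not tested. Because the genes were chosen with earlier results of these data known, it cannot be read as an enrichment. At an unadjusted p under 0.05, 15 of the 40 were higher and 2 lower (background 18.2% and 17.0% of all genes tested). In bulk RNA a higher level in each cell and a larger share of cells with the transcript cannot be told apart.

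The libraries of the groups did not overlap for 32 of the 40 genes. In 22 of them both RB-BC libraries were above both DMSO libraries (background 33.1% of all genes tested), and in 10 both were below (background 32.1%). The median log2 fold change of the 40 genes was 0.22, beside −0.0016 for all genes tested, and it ran from −0.66 (ATG4A) to 1.26. Above 0 were 49.9% of all genes tested, and 25 of the 40. By step, all 5 LC3 and GABARAP genes and 6 of 7 receptor genes were above 0, as were 3 of 5 genes of the ULK1 complex, 2 of 7 of the class III kinase complexes, 3 of 5 of membrane growth, 5 of 9 of conjugation and 1 of 2 of fusion. Differences between steps were not tested.

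The counts of calls depended on the scaling, the libraries and the tool. With library totals as the scaling, GABARAP, OPTN and WIPI1 rose (3 of 40, background 5.75%), a share closer to the background. Without RB-BC 1, 0 of the 40 genes passed edgeR's test (background 1.07% of genes called higher), with 6 higher and 1 lower at an unadjusted p under 0.05 (background 9.41% and 8.44%), and without RB-BC 2 only WIPI1 passed (background 2.24%). In both fits the spread is set by the DMSO pair alone, which includes DMSO 2. In the fits without a DMSO library it is set by the RB-BC pair alone. The RB-BC pair differed less within itself (chi-square of 38.8 per degree of freedom, against 246 for DMSO). The p-values of the fits without 1 library are therefore not comparable with those of all 4 libraries. Without DMSO 1, 10 rose (background 11.5%), and without DMSO 2, 11 rose (background 13.5%) and ATG5 fell (background 12.5%). DESeq2 called 11 higher (background 11.9%) and ATG5 lower (background 11.3%), the 6 genes above among them. The log2 fold changes of the 6 lay between 0.47 and 1.36 in the fits that left out 1 library. Their sign could hardly turn there, because both RB-BC libraries were above both DMSO libraries for each of them.

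**Figure D1:**
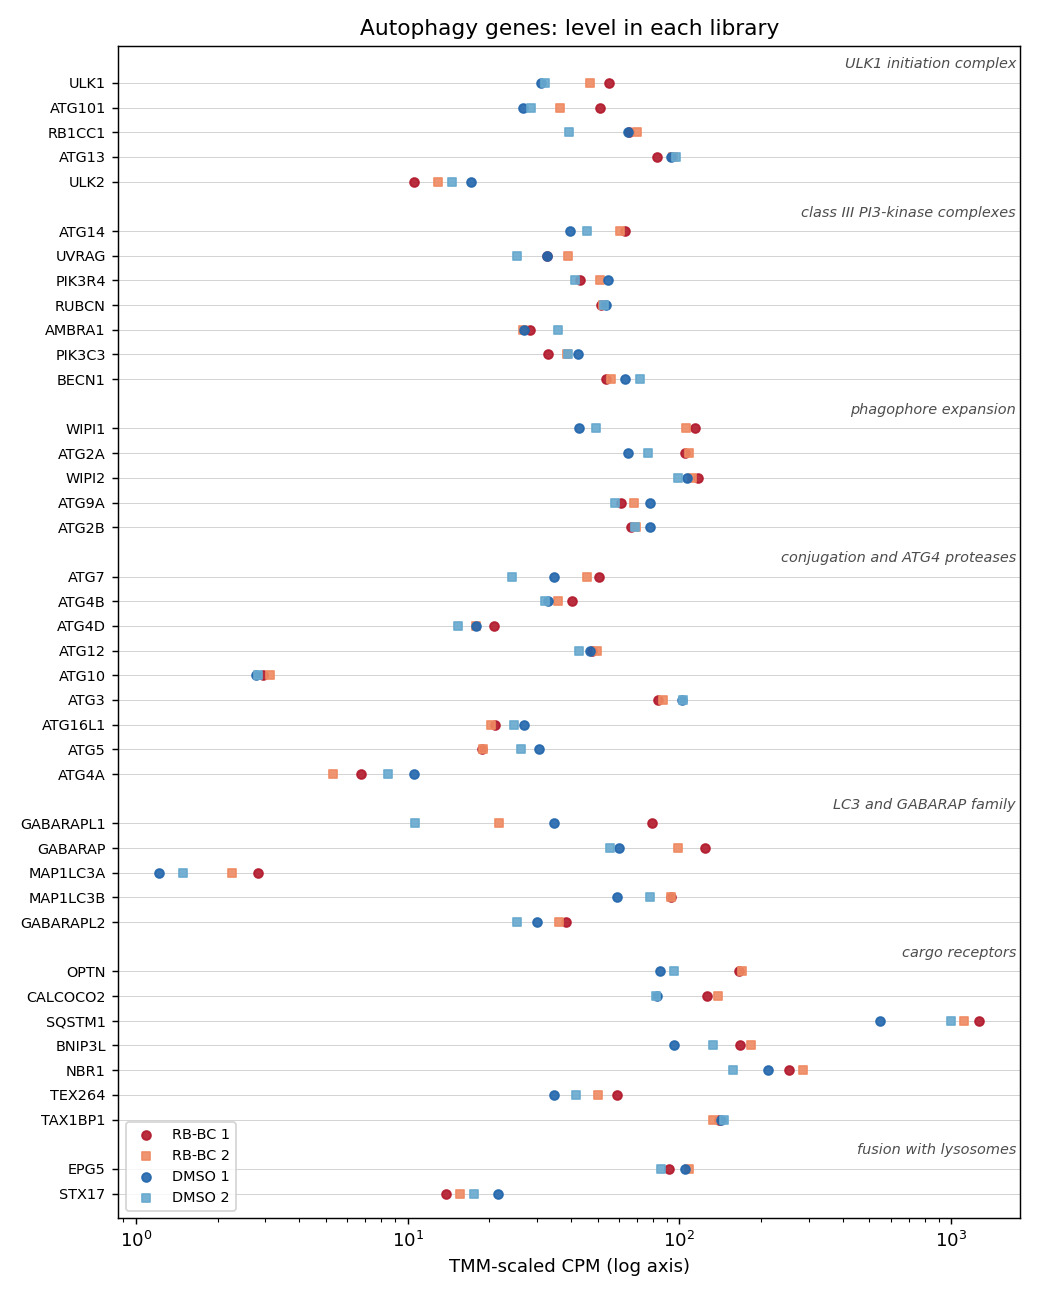
TMM-scaled CPM (log axis) of the 40 autophagy genes in each library, grouped by step; dark red circles are RB-BC 1, orange squares RB-BC 2, dark blue circles DMSO 1 and light blue squares DMSO 2. Both RB-BC symbols lie to the right of both DMSO ones for 22 genes, among them WIPI1, OPTN and GABARAP, and GABARAPL1 shows the widest gap between libraries of the same group.

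**Figure D2:**
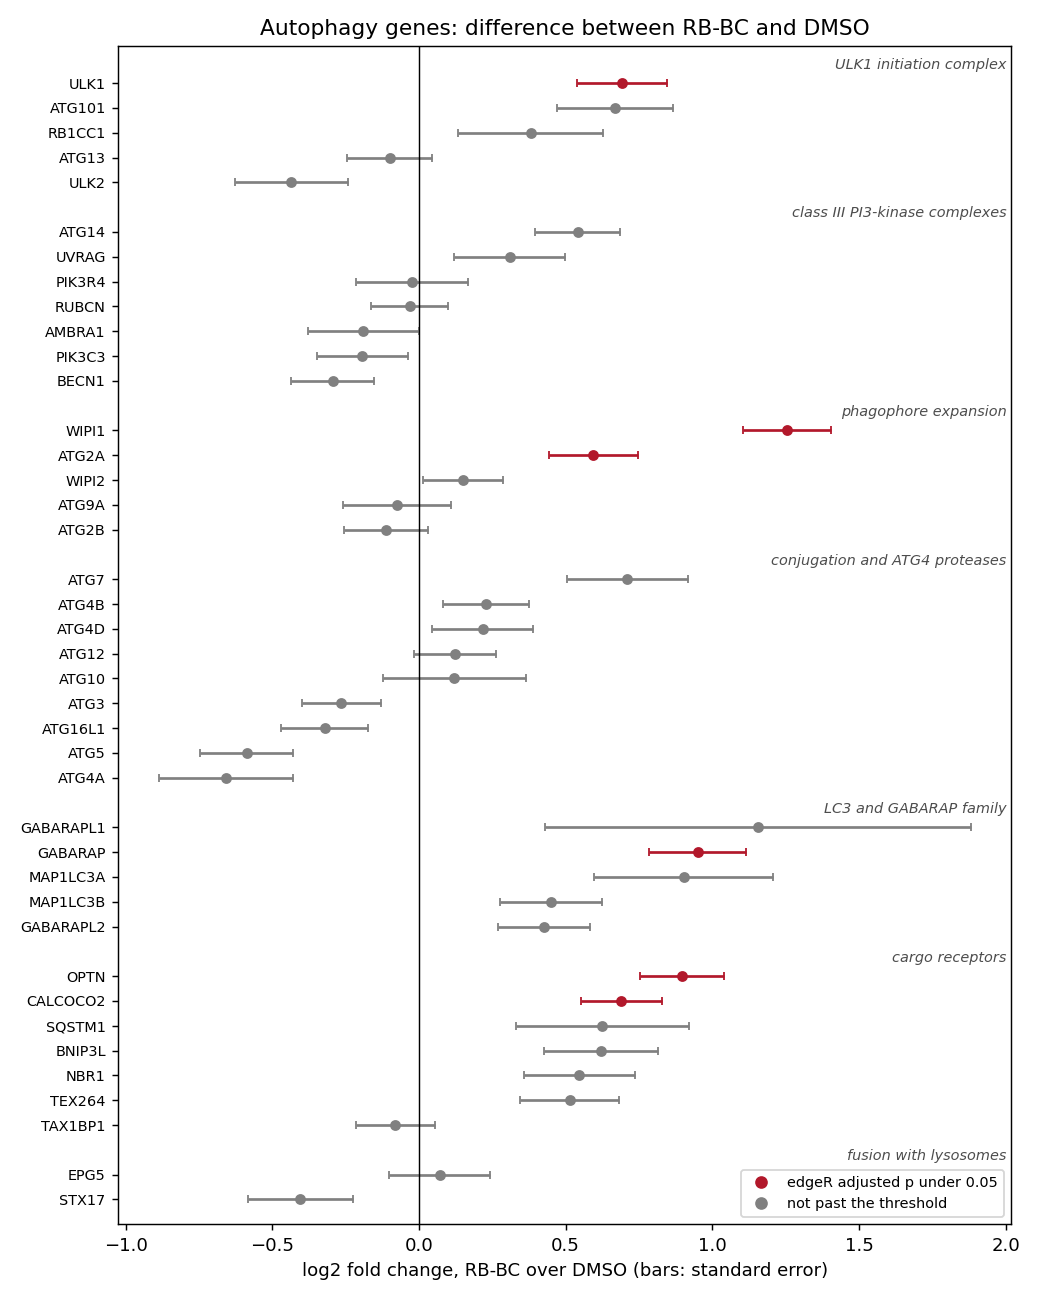
Log2 fold change of RB-BC over DMSO with its standard error for the 40 genes, grouped by step and ordered within it. The 6 red points passed edgeR's test, from ATG2A (0.59) to WIPI1 (1.26), and no gene below 0 passed.

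The sequence before the transcription start is shown for the 3 genes with the smallest adjusted p among the 6 that rose, and for the 2 genes in which an E-box of the CLEAR type was found. CLEAR elements are bound by the lysosome and autophagy regulator TFEB and its relatives. Sequences are RefSeq's, on GRCh38.p14, 250 bases before to 50 bases after an annotated start, written along the gene's strand. Capitals mark GTCACGTG (the first letters of the CLEAR element, which hold the E-box core CACGTG) and the GC box core GGGCGG, each on either strand. WIPI1 lies at chr17:68457447-68457746 on the minus strand, OPTN (the first of its listed starts) at chr10:13099832-13100131 on the plus strand and GABARAP at chr17:7242400-7242699 on the minus strand. ATG14 lies at chr14:55411781-55412080 on the minus strand and ATG3 at chr3:112561913-112562212 on the minus strand.
WIPI1: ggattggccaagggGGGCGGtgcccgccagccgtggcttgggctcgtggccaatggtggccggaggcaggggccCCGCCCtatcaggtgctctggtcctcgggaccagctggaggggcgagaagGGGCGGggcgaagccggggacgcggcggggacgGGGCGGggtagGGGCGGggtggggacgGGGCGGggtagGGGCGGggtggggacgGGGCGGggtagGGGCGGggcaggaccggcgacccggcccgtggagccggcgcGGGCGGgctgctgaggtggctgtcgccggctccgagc
OPTN: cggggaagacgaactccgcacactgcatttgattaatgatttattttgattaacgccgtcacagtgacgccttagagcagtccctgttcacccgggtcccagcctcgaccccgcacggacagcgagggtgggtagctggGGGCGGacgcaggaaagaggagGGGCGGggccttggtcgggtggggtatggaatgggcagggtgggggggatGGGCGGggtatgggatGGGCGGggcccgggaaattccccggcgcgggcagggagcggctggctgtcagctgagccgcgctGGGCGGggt
GABARAP: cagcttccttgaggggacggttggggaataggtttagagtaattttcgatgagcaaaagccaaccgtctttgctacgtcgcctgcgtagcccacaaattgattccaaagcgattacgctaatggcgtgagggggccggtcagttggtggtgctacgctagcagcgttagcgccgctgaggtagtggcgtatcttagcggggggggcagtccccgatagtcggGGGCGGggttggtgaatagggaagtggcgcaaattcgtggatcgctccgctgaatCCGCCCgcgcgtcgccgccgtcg
ATG14: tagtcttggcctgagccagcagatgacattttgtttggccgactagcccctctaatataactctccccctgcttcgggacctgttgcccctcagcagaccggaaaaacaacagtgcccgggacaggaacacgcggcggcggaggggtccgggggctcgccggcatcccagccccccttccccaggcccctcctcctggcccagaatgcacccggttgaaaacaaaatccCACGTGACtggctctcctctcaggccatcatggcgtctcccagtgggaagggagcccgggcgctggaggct
ATG3: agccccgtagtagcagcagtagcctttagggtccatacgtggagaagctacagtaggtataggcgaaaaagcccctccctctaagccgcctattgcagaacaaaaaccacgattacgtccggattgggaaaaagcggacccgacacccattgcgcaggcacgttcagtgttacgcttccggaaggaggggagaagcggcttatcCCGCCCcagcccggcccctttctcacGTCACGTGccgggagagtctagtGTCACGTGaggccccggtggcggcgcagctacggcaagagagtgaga

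Of the 40 genes, 33 had a promoter sequence, and ATG4D, BNIP3L, EPG5, MAP1LC3A, RB1CC1, STX17 and UVRAG had none in the table used. The core CACGTG was found in 2 of these 33, ATG14 and ATG3, beside 8.78% of all 27305 genes with such a sequence, and both matches extended to GTCACGTG, found in 2.93% of all genes. In ATG3 the longer element began 20 bases before the start and again at base 4 after it. In ATG14 it lay on the opposite strand, with its lowest position 21 bases before the start. The C/EBP-ATF element TGATGCAA was in 0 of the 33 and in 1.08% of all genes. GGGCGG, searched after the WIPI1 sequence had been read, was in 25 of 33 and in 48.3% of all genes. These shares count a match at any listed start of a gene, whereas copies were counted at the first listed start alone. There, WIPI1 held 10 copies, the most of the 33, whose median was 2, and 0.223% of all genes held at least as many. Only 10959 of the 27305 genes with a sequence were tested for expression, whereas all 33 were. The shares of all genes given here are therefore an unlike background for the 33. The median GC content of the 33, also at the first listed start, was 64.7%, beside 65.0% for tested genes with a sequence. WIPI1 had the highest at 79.7%. ATG14 and ATG3, the 2 with the CLEAR-type letters, did not pass the test and had opposite signs (0.54 and −0.26).

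The ULK1 complex receives nutrient and energy signals from mTORC1 and AMPK. ULK1 (ENSG00000177169), its kinase, was at 55.0 and 46.9 CPM in RB-BC 1 and 2, against 30.9 and 32.2 CPM in DMSO 1 and 2. Both treated libraries were well above the vehicle libraries, which differed little from each other, and the log2 fold change was 0.69 ± 0.15 (SE, edgeR adjusted p = 0.0338). ULK2, a second kinase of the same family, lay on the other side, at 10.5 and 12.9 CPM in RB-BC and 17.2 and 14.6 CPM in DMSO (−0.44 ± 0.19, edgeR adjusted p = 0.166). The difference between these kinases was not tested.

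ATG101, which stabilizes the scaffold ATG13, was at 51.0 and 36.5 CPM in RB-BC, against 26.7 and 28.4 CPM in DMSO (0.67 ± 0.20, edgeR adjusted p = 0.0694), and it passed with DESeq2 (adjusted p = 0.0270). Its treated libraries were far apart, though both were above the vehicle. ATG13 itself had 82.6 and 94.9 CPM in RB-BC and 93.4 and 96.8 CPM in DMSO, and its groups overlapped (−0.10 ± 0.14). RB1CC1, the FIP200 scaffold, had 65.3 and 70.2 CPM in RB-BC, against 64.8 and 39.2 CPM in DMSO. Its low value in DMSO 2 decides its fold change, which was 0.79 without DMSO 1 (edgeR adjusted p = 0.0189) and 0.06 without DMSO 2. ATG101 shares 42.7% of its annotated exon bases with an antisense gene, and without the strand setting the source of those reads is unknown.

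The class III kinase complexes pair the lipid kinase PIK3C3 and its regulatory subunit PIK3R4 with beclin 1 (BECN1) and either ATG14, which directs the complex to forming autophagosomes, or UVRAG, which works on endosomes. None of the 7 genes passed edgeR's test, and 1 was higher and 0 lower at an unadjusted p under 0.05, a share near the background of 18.2% for higher genes. ATG14 came nearest, at 63.3 and 60.6 CPM in RB-BC, against 39.5 and 45.6 CPM in DMSO (0.54 ± 0.15, edgeR adjusted p = 0.0557). Its groups were well separated, and it passed with DESeq2 (adjusted p = 0.0222). Its log2 fold change was 0.65 without DMSO 2 and 0.44 without DMSO 1.

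UVRAG was also above 0 (0.31 ± 0.19), with 32.7 and 38.9 CPM in RB-BC and 32.6 and 25.2 CPM in DMSO. The shared subunits were not: BECN1 was at 53.8 and 55.9 CPM in RB-BC, against 62.8 and 71.7 CPM in DMSO (−0.29 ± 0.14, edgeR adjusted p = 0.198). PIK3C3 was at −0.19 ± 0.16, and PIK3R4 was at −0.02 ± 0.19, the value nearest to 0 of the 40. The 2 regulators of these complexes were AMBRA1, which activates them, at −0.19 ± 0.19, and RUBCN, which encodes the inhibitor Rubicon, at −0.03 ± 0.13. RUBCN had 51.6 and 52.5 CPM in RB-BC and 53.8 and 52.7 CPM in DMSO.

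Among the genes of membrane growth, WIPI1 (ENSG00000070540) had the largest called change of the 40. It was at 114 and 106 CPM in RB-BC, against 42.9 and 49.3 CPM in DMSO, so both treated libraries lay far above both vehicle libraries. The log2 fold change was 1.26 ± 0.15 (edgeR adjusted p = 0.00945). WIPI1 binds PI3P on the phagophore. It passed in each fit except that without RB-BC 1 (1.20, edgeR adjusted p = 0.0713). WIPI1 shares 28.5% of its exon bases with the arylsulfatase gene ARSG on the opposite strand, which had 17.0 and 17.8 CPM in RB-BC, against 11.1 and 13.7 CPM in DMSO.

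WIPI2, which recruits ATG16L1, had 117 and 111 CPM in RB-BC and 107 and 99.0 CPM in DMSO (0.15 ± 0.14, edgeR adjusted p = 0.469). The difference between WIPI1 and WIPI2 was not tested. ATG2A (ENSG00000110046), which encodes a protein that moves lipid into the growing sheet, was at 105 and 109 CPM in RB-BC, against 64.6 and 76.9 CPM in DMSO (0.59 ± 0.15, edgeR adjusted p = 0.0482), just inside the threshold. It did not pass with library totals as the scaling (edgeR adjusted p = 0.0641) or with no low-count filter (edgeR adjusted p = 0.0525). Its relative ATG2B was at 66.4 and 69.2 CPM in RB-BC and 78.3 and 68.5 CPM in DMSO (−0.11 ± 0.14). ATG9A, the scramblase of the vesicles that seed the sheet, was at −0.08 ± 0.18, and it shares 43.5% of its exon bases with another annotated gene on the same strand.

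The conjugation enzymes and ATG4 proteases numbered 9 genes. None passed edgeR's test, and 1 was higher and 2 lower at an unadjusted p under 0.05, near the backgrounds of 18.2% and 17.0%. ATG7, the E1-like enzyme, was at 50.5 and 45.8 CPM in RB-BC, against 34.7 and 24.2 CPM in DMSO (0.71 ± 0.21, edgeR adjusted p = 0.0657). It passed with DESeq2 (adjusted p = 0.0216), and it was at 0.99 without DMSO 1 and at 0.47 without DMSO 2. Of its exon bases, 32.2% overlap VGLL4 on the opposite strand. ATG5, which is joined to ATG12, was on the other side, at 18.7 and 19.0 CPM in RB-BC and 30.5 and 26.1 CPM in DMSO (−0.59 ± 0.16, edgeR adjusted p = 0.0556).

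ATG5 was the one gene of the 40 called lower in any fit, by DESeq2 (adjusted p = 0.0266) and when DMSO 2 was left out. Its log2 fold change was −0.70 without DMSO 2 and −0.47 without DMSO 1. ATG12, its partner, was at 47.7 and 49.7 CPM in RB-BC and 46.8 and 42.6 CPM in DMSO (0.12 ± 0.14). ATG16L1, which completes the E3-like complex with them, was at 20.9 and 20.2 CPM in RB-BC, against 26.8 and 24.6 CPM in DMSO (−0.32 ± 0.15). The E2-like enzymes split likewise in value, with ATG3 at −0.26 ± 0.13 and ATG10 at 0.12 ± 0.24, and ATG10 was at 2.76 to 3.13 CPM in all 4 libraries. The ATG4 proteases, which trim LC3 and release it again, ran from −0.66 ± 0.23 for ATG4A (6.75 and 5.34 CPM in RB-BC, 10.6 and 8.50 CPM in DMSO) to 0.23 ± 0.15 for ATG4B, with ATG4D at 0.22 ± 0.17.

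All 5 LC3 and GABARAP genes, whose products are joined to lipid in the vesicle membrane, were above 0, and GABARAP (ENSG00000170296) passed. It had 124 and 99.2 CPM in RB-BC, against 59.9 and 55.7 CPM in DMSO (0.95 ± 0.17, edgeR adjusted p = 0.0198). Every treated library was above every vehicle library by a wide margin. An annotated gene on the opposite strand overlaps 25.2% of the exon bases of GABARAP. Part of the GABARAP exon sequence (30.5%) is shared with a read-through gene on the same strand in the annotation, which begins in an exon of the neighbouring gene CTDNEP1. CTDNEP1 was at 123 and 115 CPM in RB-BC and 106 and 121 CPM in DMSO (0.07 ± 0.15, edgeR adjusted p = 0.755).

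MAP1LC3B, which encodes the LC3 protein most used as a marker of autophagosomes, was at 93.4 CPM in both RB-BC libraries, against 59.0 and 77.8 CPM in DMSO (0.45 ± 0.17, edgeR adjusted p = 0.128). The spread lay in the DMSO pair, and the log2 fold change of MAP1LC3B was 0.66 without DMSO 2 and 0.26 without DMSO 1. The near-identical gene MAP1LC3B2 had 0.106 to 0.530 CPM, and how reads were shared between the copies is unknown. GABARAPL2 was at 38.2 and 36.1 CPM in RB-BC, against 30.0 and 25.3 CPM in DMSO (0.43 ± 0.16, edgeR adjusted p = 0.115), and MAP1LC3A at 2.81 and 2.26 CPM in RB-BC, against 1.22 and 1.49 CPM in DMSO (0.90 ± 0.30, edgeR adjusted p = 0.0949).

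GABARAPL1 had the second largest fold change of the 40 and the largest error. It was at 79.1 and 21.7 CPM in RB-BC 1 and 2, against 34.5 and 10.7 CPM in DMSO 1 and 2 (1.16 ± 0.73, edgeR adjusted p = 0.302). Library 1 exceeded library 2 by 3.65-fold in RB-BC and by 3.24-fold in DMSO, so RB-BC 2 lay below DMSO 1 and the groups overlapped. Without RB-BC 1 its value was −0.06. For the other 39 genes the larger of 2 same-group libraries exceeded the smaller by at most 1.82-fold (SQSTM1).

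Levels of different genes can be compared only roughly per kilobase of annotated exon, because the annotation used for counting and the transcripts expressed are unknown. On this scale GABARAP was highest of the family in RB-BC at 49.3 ± 7.84 CPM per kb (SD, n = 2). MAP1LC3B was next at 31.0 ± 0.01 and then GABARAPL2 at 27.2 ± 1.08, and no library of these 3 overlapped the next gene's. In DMSO, GABARAP at 25.5 ± 1.30, MAP1LC3B at 22.7 ± 4.43 and GABARAPL2 at 20.3 ± 2.45 CPM per kb were closer, and the libraries of neighbours in that order overlapped. GABARAPL1 was at 16.9 ± 13.6 CPM per kb in RB-BC and 7.56 ± 5.65 in DMSO. MAP1LC3A was lowest, at 1.44 ± 0.22 CPM per kb in RB-BC and 0.77 ± 0.11 in DMSO.

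**Figure D3:**
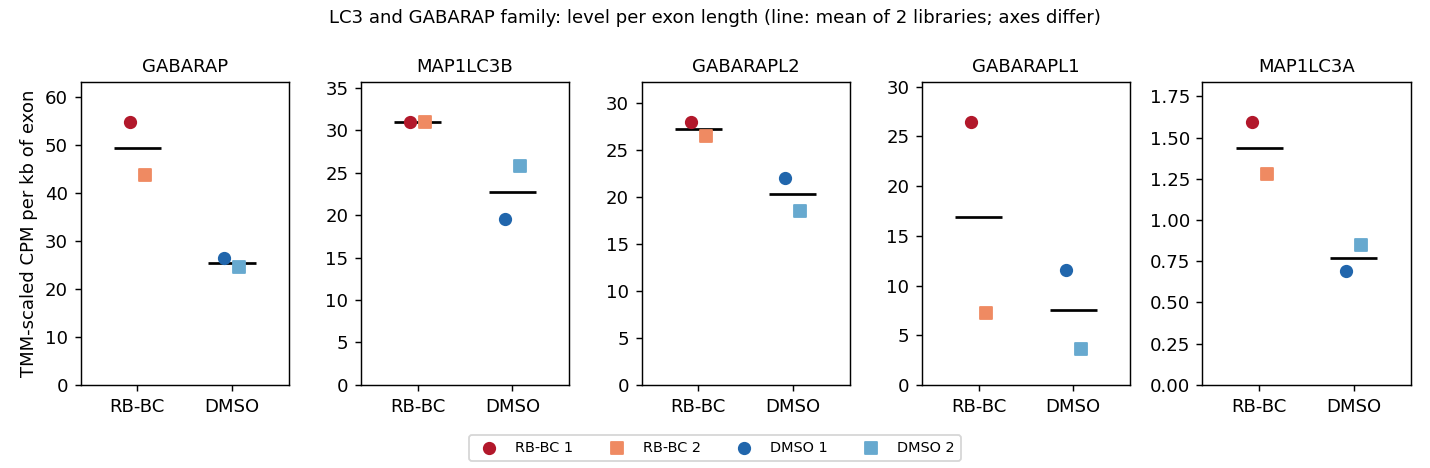
Level of the 5 LC3 and GABARAP genes in TMM-scaled CPM per kilobase of exon, RB-BC libraries left and DMSO libraries right in each panel, with the mean of 2 libraries as a line; the vertical axes differ between panels. The groups are separate for GABARAP, MAP1LC3B, GABARAPL2 and MAP1LC3A, and for GABARAPL1 library 1 (circle) lies above library 2 (square) in both groups.

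The cargo receptors bind ubiquitinated or organelle-bound cargo and LC3 at once. OPTN (ENSG00000123240), a receptor for damaged mitochondria and bacteria, was at 166 and 170 CPM in RB-BC, against 84.8 and 95.4 CPM in DMSO (0.90 ± 0.14, edgeR adjusted p = 0.0163). CALCOCO2 (ENSG00000136436), which encodes NDP52, another receptor for bacteria and mitochondria, was at 127 and 139 CPM in RB-BC, against 82.4 and 82.1 CPM in DMSO (0.69 ± 0.14, edgeR adjusted p = 0.0273). In both genes the difference between groups was several times the difference within them. CALCOCO2 and ULK1 did not pass with library totals as the scaling (edgeR adjusted p = 0.0592 and 0.0682).

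SQSTM1, which encodes p62, was by far the most abundant of the 40 per kilobase, at 344 ± 31.2 CPM per kb in RB-BC and 223 ± 91.6 in DMSO (SD, n = 2). In CPM it was at 1272 and 1119 in RB-BC, against 550 and 1000 in DMSO. The DMSO libraries were further apart than DMSO 2 was from either treated library, and the gene did not pass (0.63 ± 0.29, edgeR adjusted p = 0.188). The result turned on the vehicle library used, as its log2 fold change was 1.12 when DMSO 2 was left out (edgeR adjusted p = 0.0100) and 0.26 when DMSO 1 was (edgeR adjusted p = 0.209). DMSO 2 is the library with the large mitochondrial share, and the part of that share in this difference was not tested. SQSTM1 shares 39.8% of its exon bases with MRNIP on the opposite strand.

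NBR1, a partner of p62, was at 254 and 286 CPM in RB-BC, against 211 and 158 CPM in DMSO (0.55 ± 0.19, edgeR adjusted p = 0.0992). It passed with DESeq2 (adjusted p = 0.0498), and its log2 fold change was 0.77 without DMSO 1 and 0.35 without DMSO 2. BNIP3L, the mitophagy receptor NIX, was at 168 and 184 CPM in RB-BC, against 95.5 and 133 CPM in DMSO (0.62 ± 0.20, edgeR adjusted p = 0.0806). It passed with DESeq2 (adjusted p = 0.0281), and its log2 fold change was 0.88 without DMSO 2 and 0.40 without DMSO 1. TEX264, a receptor for the endoplasmic reticulum, was at 58.8 and 50.2 CPM in RB-BC, against 34.6 and 41.8 CPM in DMSO (0.51 ± 0.17, edgeR adjusted p = 0.0881). TAX1BP1, related to CALCOCO2 in structure, was the one receptor below 0, at 139 and 133 CPM in RB-BC and 142 and 146 CPM in DMSO (−0.08 ± 0.14, edgeR adjusted p = 0.705).

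Fusion with the lysosome was represented by STX17, the SNARE of the closed autophagosome, and EPG5, a tether. STX17 was at 13.9 and 15.6 CPM in RB-BC, against 21.4 and 17.5 CPM in DMSO (−0.40 ± 0.18, edgeR adjusted p = 0.166). EPG5 was at 91.7 and 109 CPM in RB-BC and 105 and 85.6 CPM in DMSO (0.07 ± 0.17, edgeR adjusted p = 0.800), with overlapping groups.

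**Figure D4:**
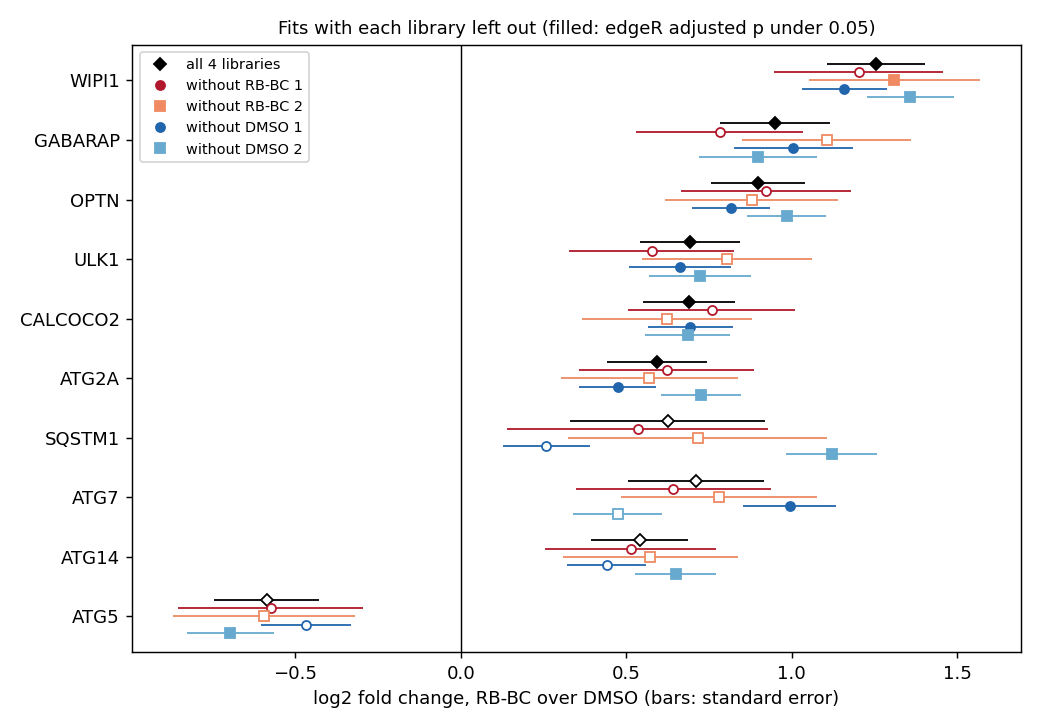
Log2 fold change of RB-BC over DMSO, with its standard error, in the fit of all 4 libraries and in each fit without 1 library, for the 6 genes that rose and for SQSTM1, ATG7, ATG14 and ATG5. Filled symbols passed edgeR's test; the values without an RB-BC library have the widest bars, and SQSTM1 lies at 0.26 without DMSO 1 and at 1.12 without DMSO 2.

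A further 76 autophagy genes outside the 40 were listed by role, also with earlier results of these data known. Of them, 73 could be tested. Of these, 11 rose and 1 fell (15.1% and 1.37%, beside the backgrounds above), and their median log2 fold change was 0.19. Receptors and adaptors gave 5 of the 11 rises out of 20 tested. FKBP8, an outer mitochondrial membrane receptor, was at 267 and 223 CPM in RB-BC, against 116 and 112 CPM in DMSO (1.10 ± 0.16, edgeR adjusted p = 0.0130). The mitophagy receptor genes BNIP3 (0.85 ± 0.16) and BCL2L13 (0.65 ± 0.15) rose as well.

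PLEKHM1, an adaptor between LC3, RAB7 and the HOPS tether, was at 122 and 111 CPM in RB-BC, against 51.0 and 51.7 CPM in DMSO (1.18 ± 0.14, edgeR adjusted p = 0.00939). It was 1 of 2 rises among the 15 genes listed here under vesicle transport and fusion. The other was GRAMD1A, a sterol transfer protein gene (1.11 ± 0.16), for which that heading is loose. NRBF2, a subunit of the ATG14-containing kinase complex, was the 1 rise among 14 other core genes, at 63.3 and 69.5 CPM in RB-BC, against 41.0 and 35.2 CPM in DMSO (0.80 ± 0.15, edgeR adjusted p = 0.0240).

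Among 24 regulators, the lysosomal membrane gene DRAM1 (1.14 ± 0.16), TP53INP1 (0.89 ± 0.15), whose product binds LC3, and the transcription factor gene FOXO3 (0.74 ± 0.16) rose. The 1 gene that fell was MITF, a relative of TFEB, at 20.7 and 22.9 CPM in RB-BC, against 32.4 and 34.7 CPM in DMSO (−0.62 ± 0.15, edgeR adjusted p = 0.0428). Without RB-BC 1, all 12 calls of these further genes were lost, and without RB-BC 2, PLEKHM1, GRAMD1A and FKBP8 kept theirs. With library totals as the scaling 7 of the 12 passed, and those lost included NRBF2 (edgeR adjusted p = 0.0669), BCL2L13 (edgeR adjusted p = 0.0700) and MITF (edgeR adjusted p = 0.130).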

How the data were processed

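The authors deposited whole-number read counts per Ensembl gene, 1 column per library, with no normalization that the values show. Per the labels' protocols, each mRNA library was made from 1.4 µg of total RNA. No source read here names the aligner, counting program, strand setting or annotation. The submitters' processing notes list the mouse builds GRCm38 and mm10, whereas all 20263 identifiers are human, so coordinates are printed only for RefSeq promoter sequences. A table pairing Ensembl identifiers with symbols named 20148 of them. Within-group pairs differed beyond sampling noise, with a chi-square of 38.8 (RB-BC) and 246 (DMSO) per degree of freedom.

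Counts were tested with edgeR 4.0.16 in R 4.3.3: filterByExpr (minimum count 10, minimum total 15), TMM scaling, quasi-likelihood test of RB-BC over DMSO on all 4 libraries, two-sided, with Benjamini-Hochberg adjustment over all 13744 genes and a threshold of 0.05. The scripts were tested on simulated data. There, 3 of 50 changes of 1.5-fold were recovered, 28 of 50 of 2-fold, and 50 of 50 each of 4-fold and 8-fold. False calls numbered 27 in the 13591 genes of that run. As a share of the calls made there, they were above the 0.05 set by the threshold. An SE is the fold change divided by the root of F. Levels per kilobase use the union of exons in GENCODE 29. Alternatives were RLE size factors, library totals, no filter, DESeq2 1.42.0, the replicate number as a block and each library left out. The members and lists were chosen with earlier results of these data known. Every called member is given in full. The largest and the smallest absolute change per role among the rest are given too, for PIK3R4, ATG9A and ATG10 without the level in each library. Of the 76 other autophagy genes, up to 3 called per role are named. MITF, and the other members given with values, were named after their values were seen.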

Additional observations from a re-analysis of the deposited data

How the results depend on the processing

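Of the 40 genes, 6 were called higher and 0 lower in RB-BC, and 2214 of all genes were called. With library totals as the scaling 3 of the 40 rose (beside 5.75% of all genes called higher) and 1205 genes were called, and with DESeq2 11 rose, 1 fell and 3114 were called. Leaving out 1 library gave 0 to 11 rises, 0 to 1 falls and 205 to 3648 calls in all. The cause of these differences was not tested. A fit without 1 library has fewer samples, and its spread is set by the pair that remains. The counts stayed within 1.5 times with RLE size factors, no filter and the replicate block.

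The replicate number as a block gave 7 rises and 0 falls (background 8.38% of genes called higher), and 9 of the 12 called further autophagy genes passed, without MITF (edgeR adjusted p = 0.0620). The correlation across genes of same-numbered libraries' deviations from the group means was −0.03, and no label ties the numbers to a shared batch, so the libraries were not treated as pairs, although single genes such as GABARAPL1 split by number. Under the block GABARAPL1 passed (1.11 ± 0.20, edgeR adjusted p = 0.00694), as did ATG7 (0.73, edgeR adjusted p = 0.0377), and ATG2A did not (0.60, edgeR adjusted p = 0.0718).

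Signs turned for genes near 0 or with 1 outlying library, none of them called without the block when all 4 libraries were used. With library totals RUBCN was at 0.016 and PIK3R4 at 0.0069. With 1 library left out, GABARAPL1 ran from −0.060 (without RB-BC 1) to 2.24, ATG13 from −0.20 to 5.3e-04, AMBRA1 from −0.38 to 0.038, PIK3R4 from −0.21 to 0.19, EPG5 from −0.071 to 0.23 and ATG9A from −0.27 to 0.15.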

Other observations

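A few further autophagy genes, picked out after their values were seen, split by library number or by single libraries. STBD1, which encodes a receptor for glycogen, was at 30.7 and 8.30 CPM in RB-BC 1 and 2, against 24.9 and 7.52 CPM in DMSO 1 and 2, so library 1 was the higher one in both groups, as it was for GABARAPL1. RTN3, a receptor for tubules of the endoplasmic reticulum, went the other way, with 97.4 and 204 CPM in RB-BC, against 97.9 and 165 CPM in DMSO. TFE3, a relative of TFEB, was at 234 and 99.4 CPM in the RB-BC libraries, which lay on either side of the 168 and 162 CPM in DMSO (0.02 ± 0.38, edgeR adjusted p = 0.980). TFEB was at 4.96 and 4.97 CPM in RB-BC, against 2.87 and 2.72 CPM in DMSO, and did not pass (0.83 ± 0.23, edgeR adjusted p = 0.0578).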
